A study of Mus musculus with 12 samples.

Results

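Lung cells carrying both the Acta2-dsRed and the Pdgfra-GFP reporter were compared between postnatal days 10 and 3 (P10 and P3), that is, across the days in which alveolar septa grow after birth. The comparison used the 3 P10 and the 3 P3 libraries, 6 of the 12 libraries of a bulk RNA-sequencing series of mouse lung, chosen by their stage label. All 12 libraries had the genotype Acta2-dsRed+, Pdgfra-GFP+ and the tissue label lung, and the 3 libraries each of E17.5 and P7 served for the estimate of spread and, where stated, as further points in time. Whole lung was dissociated and double-positive cells were collected by flow sorting, so every group rested on the same pair of reporters, and the labels set the groups apart by age alone. The gate took any cell with both signals, and the labels do not say whether a library came from 1 animal or from a pool. Separate animals are not named for the 3 libraries of a stage either, and the p-values below measure the spread between these libraries, which may be technical. Because the cells were sequenced in bulk, fewer cells of a type and less RNA per cell cannot be told apart in any gene below.

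Acta2 encodes smooth muscle alpha-actin and Pdgfra the receptor for platelet-derived growth factor A. Cells with both in the lung of the newborn mouse include the secondary crest myofibroblasts, which sit at the tips of growing septa, lay down elastin and contract. They divide in the first days after birth and are largely gone from the mature alveolar wall. Other cells of the lung mesenchyme, among them alveolar fibroblasts with lipid droplets, airway and vascular smooth muscle and pericytes, can carry either reporter.

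Estimated counts summed to between 16401784 and 17432302 in the P3 libraries and to between 13328623 and 16728671 in the P10 libraries. Levels are given as CPM (counts scaled to a common library size) after TMM scaling, and are compared between stages, not between genes. Spearman correlations across genes lay between 0.942 and 0.959 among the P3 libraries, between 0.942 and 0.954 among the P10 libraries and between 0.899 and 0.933 from a P3 to a P10 library. P10 replicate 3 stood apart in composition: its share of 7SL and 7SK small RNA counts was 20.0%, beside 34.9% to 43.7% in the other 5 libraries, and its scaling factor was 1.48. P10 replicate 1 stood apart in another way, with lower levels of epithelial and endothelial markers than the other P10 libraries, given with those markers below. Where a count of calls or a called fold change moved by over 1.5 times without either library, it is given with and without it.

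The reporter genes were both transcribed at both stages. Acta2 (chr19:34241090-34255590) read 1016, 984 and 1075 CPM at P3 and 676, 364 and 420 CPM at P10, so the groups did not overlap. Its log2 fold change of P10 minus P3 was -1.07 (SE 0.28, adjusted p = 0.0248 by edgeR's quasi-likelihood test, as for every adjusted p below). That call was lost when any P3 library or P10 replicate 2 or 3 was left out, with adjusted p between 0.0548 and 0.1 and a log2 fold change between -1.13 and -0.90. Pdgfra read 206, 164 and 165 CPM at P3 and 178, 249 and 236 CPM at P10, with overlap, and its log2 fold change of 0.30 (SE 0.19) was not called (adjusted p = 0.286). The gate required both reporter signals, so detection of both genes in all 6 libraries is no independent finding. The actin gene differed, in a call that single libraries could remove, and the receptor gene did not pass the test.

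Of 16827 genes tested, 2912 (17.3%) were called at an adjusted p under 0.05, with 1330 (7.90%) higher and 1582 (9.40%) lower at P10. A difference of at least 2-fold was seen in 554 of the higher and 633 of the lower genes. The median log2 fold change was 0.87 among the higher, -0.82 among the lower and 0.03 among all tested genes. With upper-quartile scaling, 53.1% of the called genes were higher in place of 45.7%, and the median of all genes was 0.08. Leaving out P3 replicates 1, 2 and 3 gave 1831, 1756 and 1765 calls, and leaving out P10 replicates 1, 2 and 3 gave 3053, 1348 and 1307. Of the called genes, 1069 (445 higher and 624 lower) were also called in each of the 12 fits that left out 1 library, and a gene called with a fold change below belongs to these unless its loss is stated.

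**Figure D1:**
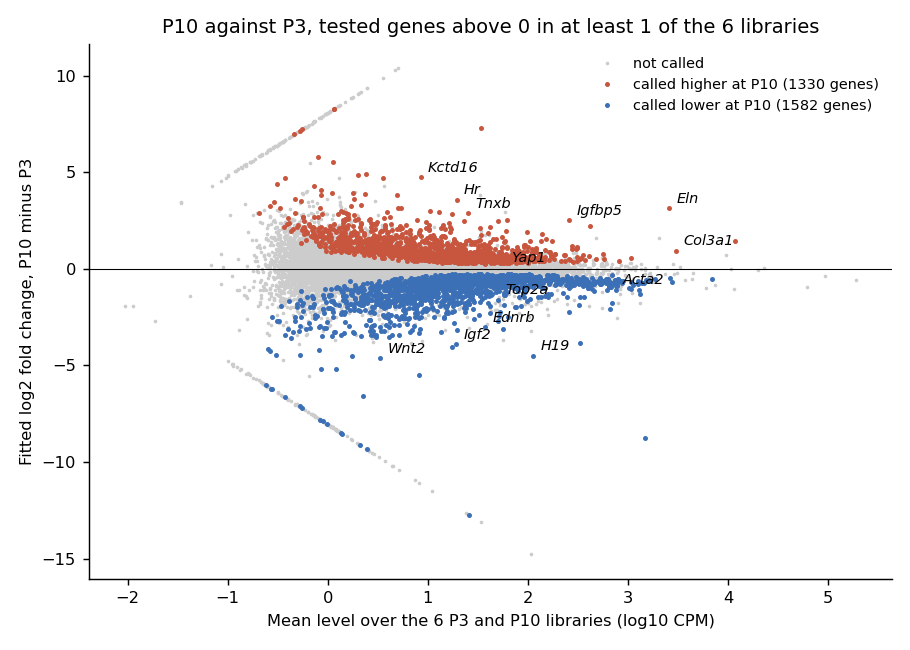
Fitted log2 fold change of P10 minus P3 (vertical axis) against the mean level over the 6 libraries in log10 CPM (horizontal axis), 1 point per tested gene, with called genes in colour. Eln and Col3a1 stand to the right among the higher genes and H19 among the lower, Yap1 lies near 0, and points on the sloping lines are genes at 0 in all libraries of 1 stage, whose fitted values are no bound.

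The genes were read against 44 gene lists, each described by the share of its tested members called in each direction beside the 7.90% and 9.40% of all tested genes. Lists for DNA replication, mitosis and imprinted or fetal growth genes lay furthest on the lower side. Clock genes and the list of matrix proteases and inhibitors lay on the higher side, and several matrix lists held members in both directions.

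**Figure D2:**
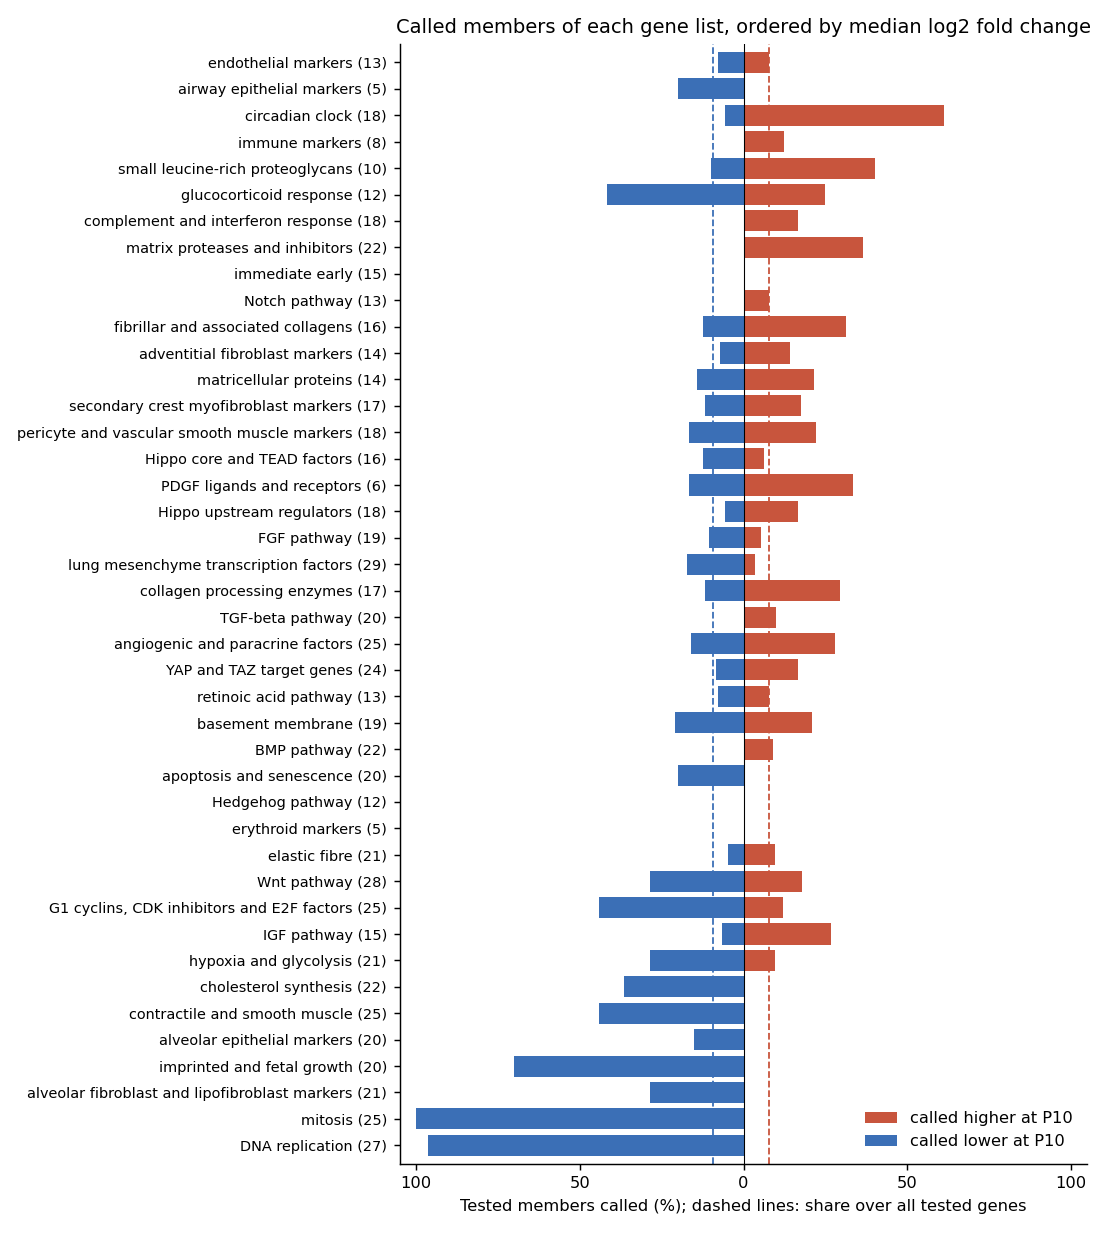
Percent of tested members called higher (right, red) or lower (left, blue) at P10 in each list of at least 5 tested members, ordered by the median log2 fold change, with the number tested in brackets and dashed lines at 7.90% and 9.40% of all tested genes. Mitosis reaches 100% and DNA replication 96.3% on the lower side, and the circadian clock 61.1% on the higher side.

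DNA replication genes fell almost without exception. Of 27 members tested, 26 were lower at P10 and 0 were higher, with a median log2 fold change of -1.76 beside 0.03 for all tested genes; in 26 of the 27 the P3 and P10 libraries did not overlap, which held for 37.3% of all tested genes. The Mcm2 to Mcm7 proteins form the ring-shaped helicase that opens DNA ahead of the fork. Mcm5 read 23.7, 23.4 and 27.6 CPM at P3 and 5.70, 2.91 and 4.47 CPM at P10 (log2 fold change -2.51, SE 0.35, adjusted p = 0.00197). Mcm3 and Mcm6 were lower by log2 fold changes of -2.01 (SE 0.19, adjusted p = 0.000505) and -1.79 (SE 0.18, adjusted p = 0.000655). In all 3 genes every P10 library lay below every P3 library.

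Genes that load the helicase and join new strands moved with it. Cdt1, which brings the helicase to origins, read 7.09, 7.41 and 10.5 CPM at P3 and 2.38, 2.78 and 2.19 CPM at P10 (log2 fold change -1.76, SE 0.19). Fen1, the nuclease that trims Okazaki fragments, went from 16.0, 16.4 and 15.8 CPM to 5.76, 4.40 and 5.64 CPM (log2 fold change -1.61, SE 0.15). The DNA ligase Lig1 and the sliding clamp Pcna, both named after their values were seen, were lower by log2 fold changes of -1.93 and -1.06. Tk1, a thymidine kinase of the same list, did not follow: it read 17.8, 18.7 and 26.4 CPM at P3 and 20.4, 24.4 and 19.2 CPM at P10 (log2 fold change 0.03, SE 0.18, adjusted p = 0.943), and was singled out after its values were seen.

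Mitosis genes fell as a whole list. All 25 tested members were called lower and 0 higher, with a median log2 fold change of -1.58. Top2a, the topoisomerase that untangles sister chromosomes, read 70.1, 75.9 and 83.0 CPM at P3 and 35.4, 16.4 and 23.2 CPM at P10 (log2 fold change -1.61, SE 0.25, adjusted p = 0.0032). Ube2c, a ubiquitin-conjugating enzyme of the anaphase-promoting complex, read 40.0, 39.4 and 36.3 CPM at P3 and 16.9, 9.58 and 9.51 CPM at P10 (log2 fold change -1.68, SE 0.27). The kinase Aurkb and the centromeric histone Cenpa were lower by log2 fold changes of -2.04 (SE 0.27) and -1.41 (SE 0.22). In each of these genes P10 replicate 1 was the highest P10 library and still lay below every P3 library. Without P10 replicate 3, 15 of the 25 were called.

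Promoter sequences of these lists are shown because their members moved together, and because genes of the S and G2 phases are known to carry different promoter elements: E2F sites in replication genes, and the cell cycle homology region (CHR), often with CCAAT boxes, in mitotic genes. The 150 bases upstream of the RefSeq start are printed 5′ to 3′ along the gene's strand (GRCm38.p6); capitals mark matches on either strand to E2F letters (TTTCCCGC, TTTGGCGC or TTTCGCGC), to the CHR letters TTTGAA or to CCAAT. In Mcm6 E2F matches on both strands overlap in the first capital run. Windows of Cdt1, Fen1 and Cenpa, named by the same rule, are not printed. Over the same 150 bases Cdt1 held no match, Cenpa held CCAAT but no CHR letters, and Fen1 held CHR but no E2F letters. The windows printed are chr1:128359706-128359855 (minus strand) for Mcm6, chr1:20820313-20820462 (minus strand) for Mcm3, chr11:99024190-99024339 (minus strand) for Top2a and chr2:164769779-164769928 (plus strand) for Ube2c.
Mcm6: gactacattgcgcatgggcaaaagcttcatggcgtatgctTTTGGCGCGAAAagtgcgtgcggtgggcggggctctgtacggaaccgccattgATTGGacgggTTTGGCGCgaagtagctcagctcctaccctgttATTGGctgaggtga
Mcm3: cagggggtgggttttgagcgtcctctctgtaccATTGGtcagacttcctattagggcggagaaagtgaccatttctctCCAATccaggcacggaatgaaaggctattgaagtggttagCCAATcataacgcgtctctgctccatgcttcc
Top2a: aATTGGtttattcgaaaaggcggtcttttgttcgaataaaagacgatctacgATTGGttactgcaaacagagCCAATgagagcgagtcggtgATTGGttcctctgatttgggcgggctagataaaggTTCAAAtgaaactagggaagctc
Ube2c: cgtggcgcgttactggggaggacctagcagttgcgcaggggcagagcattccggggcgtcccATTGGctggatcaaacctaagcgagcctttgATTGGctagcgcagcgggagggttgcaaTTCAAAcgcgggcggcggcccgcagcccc

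Over the full RefSeq windows (250 bases before to 50 after the start), 23 of the 27 replication genes and 21 of the 25 mitosis genes had an entry. E2F letters stood in 11 of the 23 replication genes (47.8%) and 1 of the 21 mitosis genes (4.76%), beside 2.12% of the 27025 genes in the table and 4.07% of the 10732 tested genes with an entry. CHR letters stood in 3 of the 23 and 16 of the 21 (76.2%), beside 20.2% of the table and 14.6% of the tested genes with an entry. CCAAT stood in 15 (65.2%) and 18 (85.7%), beside 41.1% and 42.8%. The entries cover 63.8% of the tested genes, so the shares over tested genes may not stand for all of them. A match describes letters in a window and is not a measured binding site.

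Regulators of the step into S phase were called mostly lower. Of 25 tested G1 cyclins, kinase inhibitors and E2F-family genes, 11 were lower and 3 higher, with a median log2 fold change of -0.25; the 14 calls were 9 without P3 replicate 3 and 8 without P10 replicate 2 or 3. Mybl2, a transcription factor of the mitotic gene programme, read 10.5, 11.7 and 10.3 CPM at P3 and 1.66, 1.94 and 1.73 CPM at P10 (log2 fold change -2.60, SE 0.25, adjusted p = 0.000505). E2f7, a repressor of the E2F family, was lower by a log2 fold change of -2.16 (SE 0.34). Among the higher genes was Cdkn1b, the kinase inhibitor p27, which went from 23.2, 23.4 and 27.2 CPM to 35.7, 40.1 and 42.9 CPM (log2 fold change 0.69, SE 0.11, adjusted p = 0.00388). Its relative Cdkn1c, the imprinted inhibitor p57, went the other way, from 54.0, 51.1 and 52.9 CPM to 31.4, 30.1 and 29.0 CPM (log2 fold change -0.80, SE 0.09).

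Imprinted and fetal growth genes fell or were not called. Of 20 tested, 14 were lower and 0 higher (19 and 0 at an unadjusted p under 0.05), with a median log2 fold change of -1.29. The P3 and P10 libraries did not overlap in any of the 20, beside 37.3% of all tested genes without overlap. H19, an imprinted non-coding RNA next to Igf2 (chr7:142575529-142578143), read 239, 182 and 225 CPM at P3 and 13.9, 8.41 and 6.15 CPM at P10 (log2 fold change -4.50, SE 0.37, adjusted p = 0.000363). Igf2, the fetal insulin-like growth factor (chr7:142650766-142666816), read 32.4, 35.3 and 40.7 CPM at P3 and 3.03, 1.23 and 2.90 CPM at P10 (log2 fold change -3.91, SE 0.29, adjusted p = 0.000294). Both lie in the same imprinted cluster of chromosome 7. The RNA-binding protein Igf2bp3, which binds Igf2 transcripts, was lower by a log2 fold change of -3.22 (SE 0.29), and the paternally expressed Mest by -2.52 (SE 0.39). Dlk1, named after its values were seen, read 5.39, 7.63 and 15.2 CPM at P3 and 1.07, 0.906 and 0.610 CPM at P10 (log2 fold change -3.45, SE 0.66).

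**Figure D3:**
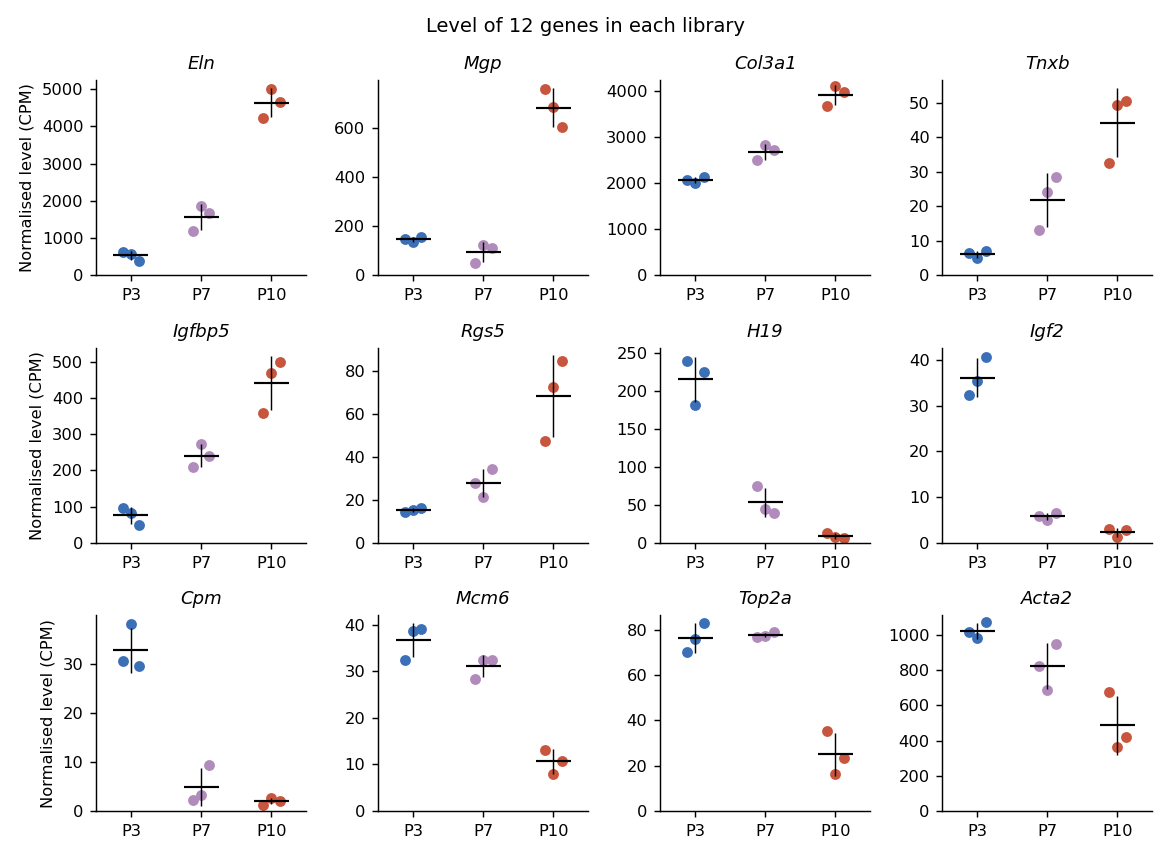
Level of 12 genes in CPM (vertical axes, each from 0) in every library at P3, P7 and P10, with 1 point per library, a horizontal line at the mean and a vertical line for the SD of 3 libraries. Eln, Mgp, Col3a1, Tnxb, Igfbp5 and Rgs5 are higher at P10, and H19, Igf2, Cpm, Mcm6, Top2a and Acta2 are lower, with no overlap between P3 and P10 in any panel.

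Elastin rose steeply, while the elastic fibre list as a whole was called at 14.3%, near the 17.3% of all tested genes. Eln, the elastin precursor (chr5:134702593-134747323), read 634, 570 and 394 CPM at P3, 1189, 1857 and 1661 CPM at P7 and 4236, 5016 and 4648 CPM at P10. The log2 fold change was 3.12 (SE 0.26, adjusted p = 0.000363), and the E17.5 libraries read 3750, 5172 and 3080 CPM, so the P10 range lay within the E17.5 range. Ltbp2, a fibrillin-binding protein of the fibre, was higher by 0.78 on the log2 scale (SE 0.17, adjusted p = 0.0123). Of the 21 tested members of the list, 2 were higher and 1, the fibrillin Fbn2 (named after its values were seen), lower, with a median log2 fold change of -0.19. The 3 calls were 5 without P10 replicate 1 and 7 without E17.5 replicate 1. The crosslinking enzyme Lox read 30.6, 33.6 and 34.05 CPM at P3 and 39.5, 24.8 and 24.4 CPM at P10, which overlap (log2 fold change -0.15, adjusted p = 0.634). The scaffold fibrillin Fbn1 had a log2 fold change of 0.23 (adjusted p = 0.159) and Loxl1, an elastin crosslinker, 0.51 (adjusted p = 0.199); these 3 were named after their values were seen.

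Fibrillar and associated collagens changed member by member. Of 16 tested, 5 were higher and 2 lower, with a median log2 fold change of 0.21. The 7 calls were 8 without E17.5 replicate 1 and 5 without any other library. Col3a1, a major fibril collagen of soft tissue, read 2073, 2000 and 2130 CPM at P3 and 3692, 4114 and 3983 CPM at P10 (log2 fold change 0.93, SE 0.13, adjusted p = 0.00191). Col14a1, which coats fibrils and also marks adventitial fibroblasts, read 20.0, 18.6 and 16.1 CPM at P3 and 95.0, 106 and 112 CPM at P10 (log2 fold change 2.51, SE 0.35). Col5a3 was higher by 2.09 and Col11a1 lower by a log2 fold change of -1.99, both at under 3 CPM in every library of these stages. The membrane collagen Col13a1, a marker of alveolar fibroblasts, read 31.9, 30.2 and 32.8 CPM at P3 and 3.15, 6.34 and 3.86 CPM at P10 (log2 fold change -2.83, SE 0.54).

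Enzymes that process collagen were called in both directions, with 5 higher and 2 lower of 17 and a median log2 fold change of 0.05. Their 7 calls were 4 without P3 replicate 2, P3 replicate 3 or P10 replicate 2. Adamts2, which cuts the amino-terminal propeptide from procollagen, read 57.0, 63.9 and 49.0 CPM at P3 and 119, 129 and 126 CPM at P10 (log2 fold change 1.14, SE 0.15, adjusted p = 0.00147). Its relative Adamts14 went from 11.1, 11.1 and 18.04 CPM to 5.88, 5.43 and 4.68 CPM (log2 fold change -1.33, SE 0.23). The prolyl hydroxylase subunit P4ha3 was higher by 1.25 (SE 0.26) and P4ha1 by 0.51 (SE 0.11). The procollagen peptidases Adamts2 and Adamts14 therefore changed in opposite directions.

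Basement membrane genes divided evenly, with 4 higher and 4 lower of 19 and a median log2 fold change of -0.08. Lama4, a laminin chain of vessel and mesenchymal basement membranes, was higher by a log2 fold change of 0.79 (SE 0.10), and the matrix-binding protein Sparc by 0.58 (SE 0.11). The X-linked neighbours Col4a5 and Col4a6 were lower by log2 fold changes of -0.95 (SE 0.16) and -1.54 (SE 0.27). The 8 calls were 4 or 5 without any P3 library, P10 replicate 2 or 3, or P7 replicate 2 or 3.

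Small proteoglycans and matricellular proteins held some of the steepest rises. Of 10 small leucine-rich proteoglycans 4 were higher and 1 lower (median log2 fold change 0.77), a count of 5 that was 3 without any P3 library or P10 replicate 2. Ecm2 was higher by a log2 fold change of 2.16 (SE 0.35) and the collagen-binding Fmod lower by -1.66 (SE 0.31). Of 14 matricellular proteins 3 were higher and 2 lower (median 0.17). Mgp, the matrix Gla protein that inhibits calcification, read 147, 134 and 158 CPM at P3, 49.7, 125 and 111 CPM at P7 and 761, 686 and 604 CPM at P10 (log2 fold change 2.23, SE 0.32, adjusted p = 0.00243). Tnxb, the tenascin of loose connective tissue, read 6.34, 4.90 and 7.03 CPM at P3 and 32.6, 49.3 and 50.6 CPM at P10 (log2 fold change 2.86, SE 0.31). Has2, which makes the hyaluronan of embryonic matrix, went from 4.57, 5.07 and 7.30 CPM to 0.831, 0.259 and 0.356 CPM (log2 fold change -3.53, SE 0.34, adjusted p = 0.000521, and -4.18 without P10 replicate 1), while Cemip, a hyaluronan-degrading protein, was higher by 2.91 (SE 0.46).

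The list of matrix proteases and their inhibitors was called in the higher direction only, with 8 of 22 higher (36.4%) and 0 lower. The edgeR test at an unadjusted p under 0.05 gave 11 higher and 0 lower, and the median log2 fold change was 0.31. The calls were ADAMTS family members, the ADAMTS-like Adamtsl2 and an inhibitor. The tested matrix metalloproteinases Mmp2, Mmp11, Mmp14, Mmp16 and Mmp23 were not called. Adamtsl2 and these metalloproteinases were named after their values were seen. The 8 calls were 5 without P10 replicate 3. Members of the ADAMTS family of secreted proteases led the list. Adamts10, which binds fibrillin microfibrils, read 106, 97.1 and 81.9 CPM at P3 and 232, 262 and 269 CPM at P10 (log2 fold change 1.42, SE 0.13, adjusted p = 0.000497). Adamts12 and the aggrecanase Adamts5 were higher by 1.75 (SE 0.32) and 2.08 (SE 0.33), and the serine protease inhibitor Serpine2 by 1.01 (SE 0.19). Outside the list, the membrane protease Adam33 went from 4.23, 6.15 and 2.30 CPM to 24.5, 31.5 and 36.2 CPM (log2 fold change 2.85, SE 0.33).

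Contractile genes fell or were not called, and their count moved widely with single libraries. Of 25 tested, 11 were lower and 0 higher (16 and 2 at an unadjusted p under 0.05), with a median log2 fold change of -0.67. Leaving out P3 replicates 1, 2 and 3 gave 5, 5 and 4 calls; the count was 17 without P10 replicate 1, 2 and 1 without P10 replicates 2 and 3, and 7 without P7 replicate 1 or 3. Cnn2, an actin-binding calponin, read 148, 132 and 136 CPM at P3 and 96.3, 64.2 and 65.5 CPM at P10 (log2 fold change -0.88, SE 0.16, adjusted p = 0.00579). Tpm1, the tropomyosin chosen here after its values were seen, read 1718, 1683 and 2185 CPM at P3 and 1163, 535 and 597 CPM at P10 (log2 fold change -1.28, SE 0.27, adjusted p = 0.0106, and 0.0525 without P10 replicate 3). Cald1, the actin-binding caldesmon, read 1920, 1757 and 1998 CPM at P3 and 1680, 1384 and 1319 CPM at P10, without overlap but not called (log2 fold change -0.37, adjusted p = 0.119). P10 replicate 1 was the highest P10 library in Acta2, Cnn2, Tpm1 and Cald1.

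Markers of the secondary crest myofibroblast moved in both directions. Of 17 tested, 3 were higher and 2 lower (6 and 3 at an unadjusted p under 0.05), with a median log2 fold change of 0.14. Estimates were above 0 in 12 and below 0 in 5. The count of 5 calls was 2 without any P3 library or P10 replicate 2 or 3. Their summed level lay between 5155 and 5463 CPM at P3 and between 4247 and 5258 CPM at P10. The list holds both reporter genes, on which the cells were sorted, and shares Acta2 and Tagln with the contractile list. Its sum therefore cannot show whether, or in what share, crest myofibroblasts were present. Mustn1, a small nuclear protein of muscle and skeleton, went from 96.6, 80.0 and 53.4 CPM to 187, 243 and 246 CPM (log2 fold change 1.55, SE 0.25, adjusted p = 0.00352). The cadherin Cdh4 was higher by 1.12 (SE 0.20). Hhip, a Hedgehog antagonist known from these cells, read 98.3, 93.0 and 116 CPM at P3 and 99.3, 110 and 130 CPM at P10, which overlap.

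Of 6 genes for platelet-derived growth factor ligands and receptors, 2 were higher and 1 lower (median log2 fold change 0.09), and the count was 2 without P3 replicate 1, P3 replicate 3 or P10 replicate 3. Pdgfrb, the beta receptor that also marks pericytes, read 36.1, 31.4 and 28.1 CPM at P3 and 85.0, 83.1 and 85.1 CPM at P10 (log2 fold change 1.40, SE 0.20, adjusted p = 0.00197). Pdgfc, a ligand of the alpha receptor, read 2.52, 2.68 and 2.70 CPM at P3 and 0.653, 0.582 and 0.966 CPM at P10 (log2 fold change -1.83, SE 0.24). Rgs5, a regulator of G-protein signalling and a pericyte marker, went from 14.2, 15.5 and 16.2 CPM to 47.4, 72.6 and 84.4 CPM (log2 fold change 2.15, SE 0.24, adjusted p = 0.0009). Yet other pericyte genes fell: Higd1b by a log2 fold change of -2.65 (SE 0.46) and the adhesion molecule Mcam by -0.92 (SE 0.18). In all, 4 of the 18 pericyte and vascular muscle markers were higher and 3 lower (median 0.13), a count of 7 that was 4 without any P3 library or P10 replicate 2 or 3, and their summed level went from between 358.7 and 425.6 CPM to between 443.6 and 538.7 CPM.

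Markers of alveolar fibroblasts and lipofibroblasts were called in the lower direction only. Of 21 tested, 6 were lower and 0 higher, with 12 lower and 0 higher at an unadjusted p under 0.05 and a median log2 fold change of -1.47. The count was 2 without P10 replicate 2 or 3, 12 without E17.5 replicate 1, 12 by DESeq2 and 11 in a fit of the 6 libraries alone. Wnt2, a Wnt ligand of the lung mesenchyme, read 6.41, 7.92 and 4.86 CPM at P3 and 0.178, 0.324 and 0.254 CPM at P10 (log2 fold change -4.63, SE 0.88, adjusted p = 0.00778). Tcf21, a transcription factor of these fibroblasts named after its values were seen, went from 98.5, 99.8 and 61.5 CPM to 20.6, 12.4 and 13.8 CPM (log2 fold change -2.47, SE 0.55, adjusted p = 0.0154), a call lost without P10 replicate 2 or 3 (adjusted p = 0.0684 and 0.0654). The summed level of the list was 1445, 1391 and 1095 CPM in the P3 libraries and 699.4, 636.1 and 683.4 CPM in the P10 libraries. The part of these cells in the changes of other genes was not tested. Adventitial fibroblast markers, by contrast, summed to between 759.2 and 927.4 CPM at P3 and between 816.0 and 962.8 CPM at P10, with 2 of 14 higher and 1 lower (median 0.17), and 1 called in all without P3 replicate 1, P3 replicate 3 or P10 replicate 2 or 3. The adventitial share called was 21.4%, beside 17.3% of all tested genes.

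Markers of cells outside the labelled type were detected in all 6 libraries, and their sums ranged more widely at P10 than at P3 for the alveolar epithelial, airway and immune lists. The 20 alveolar epithelial markers summed to between 211.2 and 300.2 CPM at P3 and to 83.18, 247.2 and 190.3 CPM at P10, with 3 called lower and 0 higher (7 and 0 unadjusted, median log2 fold change -0.76), among them Ager of alveolar type I cells (log2 fold change -0.93, SE 0.21) and the keratin Krt18 (-1.35, SE 0.30). Without E17.5 replicate 2 the count was 5. The share called was 15% of these markers, and 20% of the airway and 12.5% of the immune markers below, beside 17.3% of all tested genes. The 5 tested airway markers (Foxj1, Krt5 and Ccdc153 did not pass the filter) summed to between 233.2 and 284.9 CPM at P3 and between 151.3 and 347.7 CPM at P10, with the tubulin Tubb4b, a widely expressed protein of microtubules and cilia, called lower (-0.77, SE 0.10) and a list median of 0.95. Tubb4b and Tppp3 made up most of that sum, with means of 146.6 and 78.93 CPM at P3 and 86.24 and 96.35 CPM at P10. The 8 tested immune markers (Adgre1, Mrc1, Itgam, Itgax, Cd3e and Marco did not pass) summed to between 22.97 and 25.78 CPM at P3 and between 24.05 and 35.52 CPM at P10, with a median log2 fold change of 0.79. Lyz2, also in the alveolar epithelial list, made up most of the immune sum at P3, with a mean of 13.86 CPM. Ptprc, the leukocyte antigen CD45, was called (adjusted p = 0.0499) but in none of the 12 fits that left out a library. Haemoglobin and other red-cell genes gave 0 calls of 5 by edgeR, DESeq2 and limma-voom, and 0 at an unadjusted p under 0.05. Of 5 mesothelial and 8 Schwann or neuronal markers, Msln (under 1 CPM, called lower) and S100b (up to 20.7 CPM, called higher) passed the filter on low counts.

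Endothelial markers held 1 steep fall among mostly positive estimates. Ednrb, the endothelin B receptor, read 55.3, 56.3 and 88.8 CPM at P3 and 6.06, 7.05 and 11.3 CPM at P10 (log2 fold change -3.03, SE 0.35, adjusted p = 0.00107). The other 12 markers summed to 29.46, 33.04 and 45.94 CPM at P3 and to 34.14, 101.6 and 98.57 CPM at P10, so replicates 2 and 3 stood above and replicate 1 within the P3 range. Of all 13, Emcn was the only one called higher, its call was lost without any P3 library or P10 replicate 2 or 3 (adjusted p between 0.0584 and 0.0927), and 12 of 13 estimates were above 0 (median 1.12). The 2 calls were 15.4% of the list, beside 17.3% of all tested genes. Without P10 replicate 1, 8 endothelial markers were called. Their part in the changes of genes that endothelium shares with mesenchyme was not tested.

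Hippo pathway genes were called at a share near the 17.3% of all tested genes: 18.8% of the core members and 22.2% of the upstream regulators. YAP (Yap1) and TAZ (Wwtr1) are the co-activators that carry mechanical signals to TEAD factors on DNA. Yap1 read 55.5, 50.02 and 61.5 CPM at P3 and 65.8, 54.0 and 54.3 CPM at P10 (log2 fold change 0.06, SE 0.10, adjusted p = 0.743), and Wwtr1 differed by 0.05 on the log2 scale (SE 0.20, adjusted p = 0.892). Of 16 core members (median 0.10) 1 was higher and 2 lower: Tead2 by -0.61 on the log2 scale (SE 0.13, adjusted p = 0.0107, and 0.0522 without P10 replicate 3) and Tead1 by -0.33 (SE 0.10, adjusted p = 0.0445). Tead1 was called in 3 of the 12 fits that left out 1 library, those without E17.5 replicate 1, E17.5 replicate 3 or P10 replicate 1. The count of 3 was 0 without P10 replicate 3 and 1 without P3 replicate 1 or 2, P10 replicate 2 or any P7 library. Upstream, 3 of 18 were higher and 1 lower (median 0.09), a count of 4 that was 2 without P3 replicate 2 or P10 replicate 2 or 3. The angiomotin Amotl1, which holds YAP at junctions, went from 55.6, 57.0 and 51.0 CPM to 86.2, 86.8 and 86.1 CPM (log2 fold change 0.66, SE 0.09, adjusted p = 0.00181), and the kinase Taok1 was higher by 0.47 (SE 0.10).

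Targets of YAP and TAZ gave 4 higher and 2 lower calls of 24, with a median log2 fold change of -0.01. The 6 calls were 25% of the list, beside 17.3% of all tested genes. Their count was 3 without any P3 library or P10 replicate 2, and 2 without P10 replicate 3. Cyr61 (Ccn1) read 541, 503 and 495 CPM at P3 and 546, 545 and 599 CPM at P10 (log2 fold change 0.14, SE 0.34, adjusted p = 0.832). Ctgf (Ccn2) read 242, 192 and 381 CPM at P3 and 350, 211 and 188 CPM at P10 (log2 fold change -0.13, SE 0.43, adjusted p = 0.877). Ankrd1 did not pass the filter on low counts. F3, tissue factor, was higher by a log2 fold change of 1.66 (SE 0.29), and Birc5, a lower member named after its values were seen, is also a mitosis gene.

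Genes of the TGF-beta, BMP and Hedgehog pathways were called at 10%, 9.09% and 0%, below the 17.3% of all tested genes. Of 20 TGF-beta pathway genes (median log2 fold change 0.04) 2 were higher and 0 lower (5 and 2 at an unadjusted p under 0.05): the ligand Tgfb3 went from 76.9, 81.4 and 60.6 CPM to 131, 154 and 156 CPM (log2 fold change 1.01, SE 0.16, adjusted p = 0.00326), and the target Pmepa1 was higher by 0.76 (SE 0.15). Of 22 BMP genes (median -0.09) 2 were higher and 0 lower (4 and 3 unadjusted), with the ligand Bmp5 going from 32.5, 33.0 and 40.9 CPM to 65.5, 78.7 and 76.0 CPM (log2 fold change 1.05, SE 0.15). DESeq2 called 4 genes in each of these pathways. Hedgehog genes (median -0.15) gave 0 calls of 12 by edgeR, DESeq2 and limma-voom, with 0 higher and 3 lower at an unadjusted p under 0.05, and 1 call without P3 replicate 1 or P10 replicate 1. The receptor Ptch1, a readout of that pathway, read 104, 99.6 and 102 CPM at P3 and 93.6, 87.7 and 95.3 CPM at P10.

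Wnt pathway genes moved both ways, with 5 higher and 8 lower of 28 and a median log2 fold change of -0.24. Leaving out P3 replicates 1, 2 and 3 gave 7, 6 and 6 calls in place of 13, and leaving out P10 replicates 2 and 3 gave 6 and 5. The secreted antagonist Sfrp2 went from 8.80, 6.55 and 6.49 CPM to 1.01, 0.841 and 0.813 CPM (log2 fold change -3.03, SE 0.34, adjusted p = 0.000973). The ligand Wnt5b was lower by a log2 fold change of -1.85 (SE 0.24), the nuclear effector Tcf7 by -0.73 (SE 0.14) and the Wnt-inactivating enzyme Notum, named after its values were seen, by -1.95 (SE 0.39). The members that fell thus included ligands, antagonists and an effector.

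Insulin-like growth factor genes changed outside the ligand Igf2 as well, with 4 higher and 1 lower of 15 and a median log2 fold change of -0.33. Igfbp5, a binding protein that holds the growth factors in the matrix, read 97.5, 82.6 and 51.2 CPM at P3 and 357, 468 and 499 CPM at P10 (log2 fold change 2.52, SE 0.37, adjusted p = 0.00271). Igfbp7 was higher by 1.14 (SE 0.23), and Pappa, a protease that cleaves binding proteins, by 2.11 (SE 0.41) at under 3 CPM. Of 13 retinoic acid genes (median -0.06), the synthetic enzyme Aldh1a1 was lower by a log2 fold change of -1.76 (SE 0.24) and 1 other was higher, the count of 2 being 1 without P3 replicate 1, P3 replicate 3 or P10 replicate 3. The retinol-oxidizing Adh1 fell from 126, 113 and 63.8 CPM to 12.6, 11.4 and 10.7 CPM (log2 fold change -3.13, SE 0.44). FGF genes gave 1 higher and 2 lower of 19 (median 0.08), with 0 calls without P3 replicate 3 or P10 replicate 2 and 1 without P10 replicate 3. Notch genes gave 1 higher of 13 (median 0.27), with 0 calls without any P3 library or P10 replicate 2 or 3 and 2 without P10 replicate 1. The shares called were 15.4% for retinoic acid, 15.8% for FGF and 7.69% for Notch genes, all below the 17.3% of all tested genes. For insulin-like growth factor genes the share was 33.3%.

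Clock genes were mostly higher. Of 18 tested, 11 were higher (61.1%) and 1 lower, with a median log2 fold change of 0.85. Leaving out P3 replicates 1, 2 and 3 gave 7, 5 and 7 calls in place of 12, and leaving out P10 replicates 2 and 3 gave 3 and 4. Per3, a period gene, read 5.18, 4.10 and 2.77 CPM at P3 and 12.3, 17.99 and 19.6 CPM at P10 (log2 fold change 2.05, SE 0.25, adjusted p = 0.0012). Nr1d2 and Rora, nuclear receptors that act in opposite ways on the same clock elements, were higher by 0.94 (SE 0.16) and 1.11 (SE 0.21). The labels used here give no hour of collection, and stage and time of day cannot be told apart for these genes.

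Genes known to respond to glucocorticoids divided, with 3 higher and 5 lower of 12 (median log2 fold change 0.34); the 8 calls were 5 without P3 replicate 2, P3 replicate 3 or P10 replicate 3 and 4 without P10 replicate 2. Fkbp5, a chaperone of the receptor and a common readout of it, went from 13.8, 11.7 and 19.2 CPM to 4.21, 2.91 and 3.25 CPM (log2 fold change -2.10, SE 0.21, adjusted p = 0.000521). Klf9, which also responds to thyroid hormone, went from 27.9, 26.0 and 39.8 CPM to 72.7, 92.7 and 92.5 CPM (log2 fold change 1.46, SE 0.20, adjusted p = 0.00197). Outside the list, Hr, a corepressor known as a thyroid hormone target, went from 2.59, 2.22 and 4.26 CPM to 33.6, 42.8 and 30.9 CPM (log2 fold change 3.56, SE 0.28, adjusted p = 0.000294).

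Both metabolic lists held more lower than higher calls. Of 21 hypoxia and glycolysis genes (median log2 fold change -0.41) 2 were higher and 6 lower, and the 8 calls were 3 without P3 replicate 3 or P10 replicate 2 and 2 without P10 replicate 3. Gapdh, the glycolytic dehydrogenase, went from 144, 172 and 184 CPM to 110, 71.4 and 83.1 CPM (log2 fold change -0.92, SE 0.17), and Pfkp, a phosphofructokinase, from 17.53, 11.6 and 13.7 CPM to 31.0, 28.4 and 30.0 CPM (log2 fold change 1.06, SE 0.17). Of 22 cholesterol synthesis genes (median -0.50) 8 were lower and 0 higher (11 and 1 at an unadjusted p under 0.05). The count was 0 without P3 replicate 2 or P10 replicate 2, 1 without P3 replicate 3, 4 without P10 replicate 3 and 5 without P10 replicate 1 or P7 replicate 2. Hmgcs1, a synthase of the early pathway, read 28.4, 58.3 and 45.6 CPM at P3 and 23.5, 20.1 and 28.3 CPM at P10 (log2 fold change -0.88, SE 0.23, adjusted p = 0.0269), and its call was lost without P3 replicate 2 or 3 or any P10 library, with adjusted p between 0.0506 and 0.109.

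Secreted factors for vessels and nerves held 7 higher and 4 lower of 25, with a median log2 fold change of 0.04. Leaving out P3 replicates 1, 2 and 3 gave 6, 5 and 6 calls in place of 11; leaving out P10 replicates 2 and 3 gave 5 and 4, and P7 replicate 2 gave 7. Sema3c, a secreted semaphorin, read 51.7, 52.4 and 64.0 CPM at P3 and 157, 152 and 152 CPM at P10 (log2 fold change 1.45, SE 0.16, adjusted p = 0.0009). Hgf, the hepatocyte growth factor, was higher by 1.40 (SE 0.27), the netrin Ntn4 by 1.32 (SE 0.26) and the neurotrophin Bdnf by 2.67 (SE 0.58). Bdnf was led by P10 replicate 1, with 12.6 CPM beside 4.79 and 4.32 CPM in the other P10 libraries, and without that library its log2 fold change was 1.97 (adjusted p = 0.0352).

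Several lists were called at shares near the 17.3% of all tested genes (20.7%, 20.0% and 16.7% for the first 3 below) or not at all. Of 29 transcription factors of the lung mesenchyme (median log2 fold change 0.06) 1 was higher, the repressor Zeb2 (log2 fold change 0.51, SE 0.11), and 5 were lower, with 3, 1 and 2 calls in all without P3 replicate 1, P10 replicate 2 and P10 replicate 3. Of 20 apoptosis and senescence genes (median -0.11) 4 were lower and 0 higher (5 and 1 unadjusted), with 1 and 2 calls without P10 replicates 2 and 3. Of 18 complement and interferon genes (median 0.32) 3 were higher and 0 lower (4 and 1 unadjusted), with 0 or 1 call without any compared library and 5 without E17.5 replicate 1. Immediate early genes, which respond to many stimuli (median 0.30), gave 0 calls of 15 by edgeR, DESeq2 and limma-voom and 0 at an unadjusted p under 0.05. Fos spread widely within each stage, at 1599, 1339 and 754 CPM at P3 and 763, 1721 and 1898 CPM at P10.

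Among the 24 genes with the largest differences, further members had no list of their own. Kctd16, an auxiliary subunit of GABA-B receptors, went from 0.477, 0.855 and 0.473 CPM to 15.6, 17.0 and 16.6 CPM, the largest rise by this rule (log2 fold change 4.74, SE 0.42, adjusted p = 0.000475). Ace, angiotensin-converting enzyme (chr11:105967945-105989964), went from 6.89, 6.84 and 7.57 CPM to 43.6, 34.6 and 39.5 CPM (log2 fold change 2.47, SE 0.25). The proprotein convertase Pcsk6, the kinase Prkcq and the membrane protein Tmcc3 were higher by 2.99, 2.52 and 2.49. On the lower side Cpm, a membrane carboxypeptidase (chr10:117629500-117687352), went from 30.6, 38.0 and 29.7 CPM to 1.31, 2.59 and 2.03 CPM (log2 fold change -4.05, SE 0.49, adjusted p = 0.00137). The netrin receptor Unc5c, the microtubule protein Mtcl1 and the sphingosine-1-phosphate receptor S1pr3 were lower by log2 fold changes of -3.25, -2.86 and -2.54. In all 24 the P3 and P10 libraries did not overlap, a property that the rule for naming them required.

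The P7 libraries place these net differences in time, as a description with no test. The P7 mean lay between the P3 and P10 means in 1191 of the 1330 higher genes (89.5%) and 1413 of the 1582 lower genes (89.3%), beside 49.6% of all tested genes. Called genes were chosen for a gap between P3 and P10, which makes a P7 mean between them likelier. The share over all tested genes is therefore not a like comparison. It lay closer to P3 in 57.2% of the higher and 63.4% of the lower genes, beside 53.8% of all. Cell-cycle genes were late: P7 lay closer to P3 in all 26 called replication genes and all 25 mitosis genes, and Top2a read 77.0, 77.4 and 78.9 CPM at P7, within its P3 range. Alveolar fibroblast markers were early, with P7 closer to P10 in all 6 called members, and so were 7 of 8 cholesterol genes and 5 of 6 transcription factors. Imprinted and fetal growth genes held both kinds, with 6 closer to P3 and 8 closer to P10. Igf2 read 5.83, 5.07 and 6.63 CPM at P7, above every P10 library, though its mean lay closer to P10 on the log2 scale. Dlk1 read 2.29, 8.11 and 9.52 CPM at P7, with a mean closer to P3 and its lowest library below every P3 library.

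**Figure D4:**
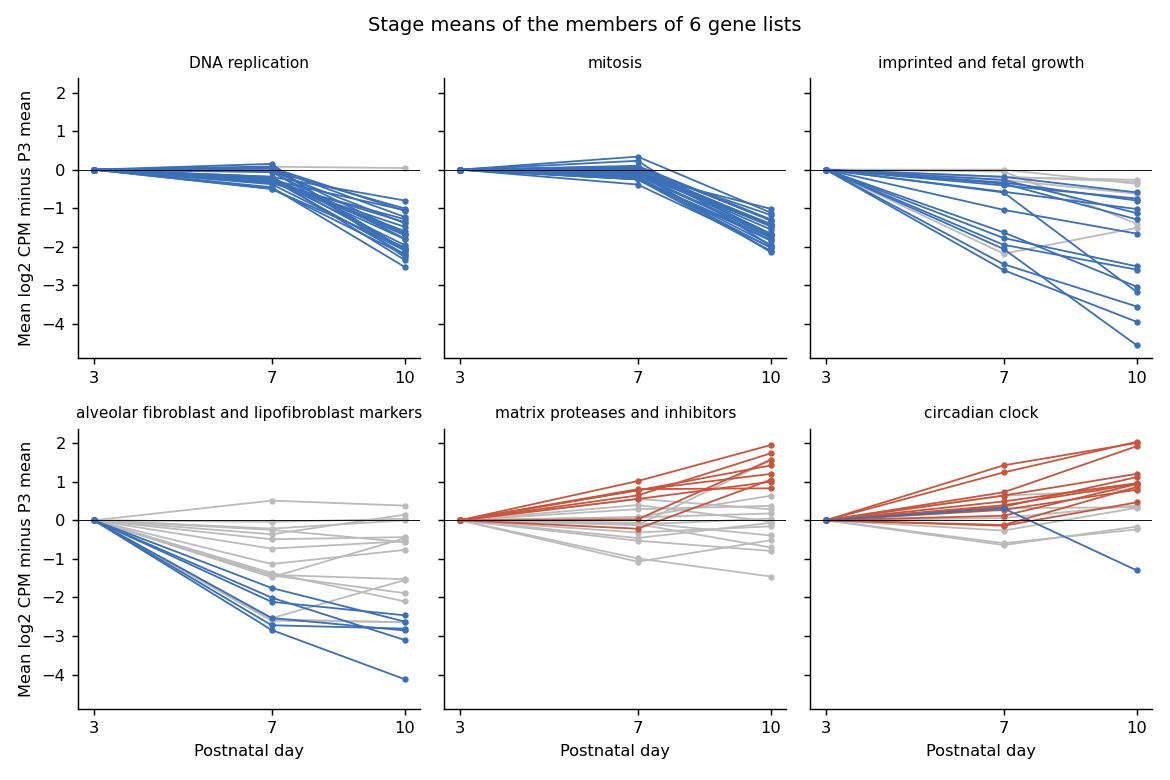
Mean log2 CPM at each stage minus the P3 mean (vertical axis) against postnatal day (horizontal axis) for each tested member of 6 lists, with members called lower at P10 in blue, called higher in red and not called in grey. Replication and mitosis genes stay near 0 at day 7 and fall by day 10, and alveolar fibroblast markers have mostly fallen by day 7. The called members of the protease and inhibitor list and all called clock genes but 1 end above 0.

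Genes whose P7 mean lay outside the P3 and P10 range were few among the called ones, with 42 higher genes above both and 97 below both, and 144 lower genes above both and 25 below both. The 4 furthest above both were Hjurp, Cenpf and Spc25, which serve centromeres and kinetochores, and the p53 target Phlda3. Hjurp read 49.2, 34.3 and 32.8 CPM at P7, above 30.7, 29.8 and 25.5 CPM at P3 and 16.6, 14.9 and 18.2 CPM at P10 (log2 fold change of P10 minus P3 -0.79, adjusted p = 0.0112, and 0.0527 without P10 replicate 2). The furthest below both were Mgp, Hsd11b1, Fmo2 and Map3k14. The calls of Cenpf, Spc25, Phlda3, Hsd11b1 and Map3k14 held in 5, 4, 6, 5 and 8 of the 12 fits that left out 1 library; P10 replicates 2 and 3 were among those whose loss ended each call, with adjusted p between 0.0677 and 0.161. Fmo2, a lung monooxygenase, read 19.2, 36.2 and 32.7 CPM at P7 and 54.4, 210 and 199 CPM at P10, so P10 replicate 1 again stood apart, and its call (log2 fold change 1.90, adjusted p = 0.0231) was lost without any P3 library or P10 replicate 2 or 3, with adjusted p between 0.0532 and 0.0854.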

How the data were processed

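The deposited table holds 28004 genes in 12 libraries. The file name calls its values scaled and they are whole, so they were taken as estimated counts, deposited after scaling and rounding by the authors. A gene's lowest value above 0 had a median of 56.5 for transcripts up to 120 nt and 21 for those over 1500 nt, so values of short genes may not be numbers of reads. Per the labels' protocols, RNA of sorted cells went into a stranded, low-input total RNA library, although the molecule label names polyA RNA. The build was GRCm38 per the submitters' processing notes; for aligner, counter and strand setting nothing is given in the sources used here. Positions are from GENCODE M21 (25847 genes).

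One edgeR quasi-likelihood model (edgeR 4.0.16, limma 3.58.1, R 4.3.3) was fitted to all 12 libraries, with TMM scaling, edgeR's filter by stage, robust estimation and p-values adjusted by Benjamini-Hochberg over 16827 genes, called under 0.05. The SE is the fold change over the root of F. The median prior degrees of freedom were 2.61. The script was tested on simulated data. In all, 24 alternatives were run: scalings, filters on low counts, limma-voom, DESeq2 1.42.0, the 6 libraries alone, a replicate block, a tested fold of 1.5 and each library left out.

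Members and the 44 lists were chosen with earlier results of these data known. Named first were the reporter and YAP genes. Next were the 12 genes furthest up and the 12 furthest down among those called in the main and all 12 leave-one-out fits. These had at least 10 CPM at P3 or P10, no overlap and no predicted name. Each list gave up to 4 members of smallest p called in the same fits, at any level and with or without overlap. Where fewer than 2 were, members highest in CPM were added to make 2. Last were the 4 called genes with P7 furthest above and the 4 furthest below, with at least 10 CPM and no predicted name. Promoters are RefSeq's for GRCm38.p6; a gene with several windows counted as holding a motif if any did. Motif shares over all called genes are not reported, since under 80% of them matched the table and the check is void. A gene that the naming rule reached is not reported here.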

Additional observations from a re-analysis of the deposited data

How the results depend on the processing

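None of the called fold changes named above changed direction under the 24 alternatives. The 2912 called genes (1330 higher, 1582 lower) became 4144 by DESeq2, 2829 by limma-voom, 2180 with no filter and 2363 in the 6 libraries alone. Testing a fold above 1.5 left 362 genes, 141 higher and 221 lower. Leaving out 1 library gave between 1307 and 3053 called genes, between 562 and 1359 higher and between 745 and 1758 lower. The lowest were without P10 replicate 3, and the cause was not tested. The replicate numbers were not taken to pair the libraries. Same-numbered P3 and P10 libraries had deviation correlations of -0.00893, -0.000234 and -0.169, and the other pairs between -0.0911 and 0.101. Deviations from a mean of 3 libraries depend on one another, so these values cannot decide whether the numbers pair them. With a replicate block the count was 2410, and with a replicate block in the 6 libraries alone it was 281, 93 higher and 188 lower. With 3 libraries per stage and totals down to 13328623, genes of low level have the widest errors.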
